A study of Mus musculus with 6 samples.

Results

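The genes described here are *Gja1*, *Gjb6* and *Gjb2*, which encode connexin 43, connexin 30 and connexin 26, the connexins of astrocytes. Their accessible regions were taken as the ATAC-seq peaks whose summit lay in the gene body or within 100 kb of it, and a summit in reach of both *Gjb2* and *Gjb6* was given to the nearer transcription start site (TSS). By this rule 56, 56 and 63 peaks belonged to the 3 genes in the GR-Con 1, 2 and 3 lists, of 185393, 184618 and 198929 peaks, and 58, 56 and 58 in the GR-KO 1, 2 and 3 lists, of 179462, 183971 and 184056. Brought together across libraries as windows centred on summits, 200 bp either way, with a peak in at least 2 libraries, they made 44 sites of 160877 in all, 21 at *Gja1*, 12 at *Gjb6* and 11 at *Gjb2*.

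The libraries were made from astrocyte nuclei of primary visual cortex (V1) of GRfl/fl mice at postnatal day 21, in which both copies of *Nr3c1*, the gene of the glucocorticoid receptor (GR), carry sites for Cre recombinase. Pups of both groups received an AAV2/5 virus at postnatal day 0 to 1 whose GfaABC1D promoter, an astrocyte promoter, drove Cre together with EGFP-KASH (GR-KO) or the inactive ΔCre together with EGFP-KASH (GR-Con), with the 4x6T element in both. Each group had 3 libraries, and each library pooled the V1 of 3 to 4 animals from which nuclei positive for GFP and the DNA dye DRAQ5 were sorted. A pool holds transduced nuclei only as far as the GFP gate selects them, and fewer nuclei with an open site and less access per nucleus cannot be told apart in such bulk data.

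Connexins assemble into hexameric hemichannels, and hemichannels of apposed cells dock to form gap junctions that pass ions, metabolites and second messengers. Astrocytes are joined by these junctions into a network that buffers potassium and shares glucose and lactate. Connexin 43 is present in astrocytes from early development, connexin 30 appears as astrocytes of the grey matter mature, and connexin 26 is a close relative of connexin 30 whose gene is its neighbour. In the GENCODE annotation of mm10, *Gja1* (ENSMUSG00000050953.10) lies on the plus strand at chr10:56377330-56402513, *Gjb6* (ENSMUSG00000040055.9) on the minus strand at chr14:57123303-57133611 and *Gjb2* (ENSMUSG00000046352.7) on the minus strand at chr14:57098600-57104702. The bodies of *Gjb2* and *Gjb6* are 18600 bp apart and their TSSs 28909 bp, with the predicted gene *Gm4491* between them. Sites are named below by gene and by distance from its TSS along the direction of transcription.

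ATAC-seq marks open DNA by the cuts of the Tn5 transposase. For each peak the authors deposited a fold enrichment over the background around it and a −log10 p, and these 2 values together give back the whole number of Tn5 cut ends stacked on the summit (the summit count) and the number of cut ends in the 10 kb around it (the 10 kb count), which is the local background the fold is divided by. The background level of the lists put the libraries within 1.00 to 1.15 of the shallowest in depth, GR-Con 3 being the deepest. All 6 astrocyte markers examined had a promoter peak in every library, at a mean percentile of −log10 p of 86.9 to 87.7 in GR-Con and 88.0 to 89.2 in GR-KO. Among other cell types the mean percentile was 21.03 to 34.4 and 26.7 to 30.0003 for 6 neuronal markers, 11.9 to 13.7 and 6.24 to 15.8 for 4 oligodendrocyte markers, 15.004 to 17.6 and 14.7 to 18.2 for 4 microglial markers, 25.8 to 31.3 and 33.1 to 36.0 for 4 endothelial and mural markers, and 89.7 to 90.6 and 88.5 to 89.3 for *Pdgfra* and *Cspg4*, markers of oligodendrocyte precursors, in GR-Con and GR-KO respectively. *Mog*, *Mag*, *Aif1*, *C1qa*, *Cx3cr1* and *Pecam1* had no promoter peak in any library. A marker without a promoter peak entered these means as 0, so a mean can hide a strong member. Of the endothelial and mural markers, *Pdgfrb* stood at percentile 85.9 to 92.8 over the 6 libraries. Of the microglial markers, *P2ry12* stood at 58.7 to 72.9. The part of other nuclei in the results was not tested. The promoter of *Nr3c1* was open in both groups, at percentile 91.4 to 91.8 in GR-Con and 88.6 to 90.4 in GR-KO, and a promoter peak does not show whether the floxed exon was removed.

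The sequences of the 2 *Gjb6* sites called lower in GR-KO by summit count are printed first. They run 100 bases to each side of the site centre on the plus strand of mm10, with the glucocorticoid receptor hexamer AGAACA in capitals. Of these sites, *Gjb6* +1331 was also called by −log10 p rank, while *Gjb6* -32073 was called by neither rank. The first lies in an intron of *Gjb6* (chr14:57132180-57132380) and the second lies upstream of the gene between genes (chr14:57165584-57165784).
Gjb6 +1331: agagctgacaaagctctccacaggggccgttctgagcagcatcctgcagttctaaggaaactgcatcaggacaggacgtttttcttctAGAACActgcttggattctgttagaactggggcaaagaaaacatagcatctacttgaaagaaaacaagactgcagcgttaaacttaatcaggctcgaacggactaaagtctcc
Gjb6 -32073: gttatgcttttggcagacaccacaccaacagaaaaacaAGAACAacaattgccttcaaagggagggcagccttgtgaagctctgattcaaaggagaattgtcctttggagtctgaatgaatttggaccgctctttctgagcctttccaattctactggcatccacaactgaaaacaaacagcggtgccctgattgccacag
Each holds the hexamer once, and neither holds the palindrome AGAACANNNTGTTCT within 2 mismatches. Searched on both strands of the same 201 bp, the hexamer was present in 5 of the 44 connexin sites (11.4%) and in 17.3% of all sites. Within 2 mismatches the palindrome was present in 1 connexin site (2.27%) and in 1.88% of all sites, and within 1 mismatch in 0 connexin sites and in 0.214% of all sites. That 1 site was *Gja1* +54940, with its centre in an intron of the lincRNA gene *Gm36595* beyond the end of *Gja1* and its window reaching an exon of that gene, where the match AGAACACGTTGATTT (chr10:56432195-56432209) differs from the palindrome by T12A and C14T, counted from 1 at its left end. The NFI motif TTGGCA was in 7 connexin sites (15.9%, against 20.7% of all sites), the NFI palindrome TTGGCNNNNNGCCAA in 0 (against 0.0572%), the AP-1 motif TGANTCA in 4 (9.09%, against 6.28%) and the SOX motif AACAAT in 4 (9.09%, against 7.72%). The *Gjb6* -32073 window held the GR hexamer, the NFI motif TTGGCA, the AP-1 motif and the SOX motif once each. Such matches describe the letters and not the binding of a factor.

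Presence of a peak separated the groups at no connexin site. A peak was called in all 6 libraries at 14 of 21 *Gja1* sites, 9 of 12 *Gjb6* sites and 8 of 11 *Gjb2* sites, together 70.5% of the connexin sites, against 62.0% of all sites. No connexin site was open throughout GR-Con and without any peak in GR-KO (0 of 44, against 1.15% of all sites), and none had the opposite pattern (0 of 44, against 0.618%). More GR-Con than GR-KO libraries had a peak at 3 *Gjb6*, 3 *Gjb2* and 1 *Gja1* sites, and more GR-KO than GR-Con libraries at 0, 0 and 4 sites. Together these are 15.9% and 9.09% of the connexin sites, beside 16.0% and 11.5% of all sites. The number of peaks per library was 23 to 28 in GR-Con and 26 to 29 in GR-KO for *Gja1*, 14 to 20 and 14 to 15 for *Gjb6*, and 15 to 17 and 15 to 17 for *Gjb2*, ranges that overlap for every gene. A further 4 *Gja1*, 5 *Gjb6* and 2 *Gjb2* sites rested on a peak of 1 library and were left out.

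**Figure D1:**
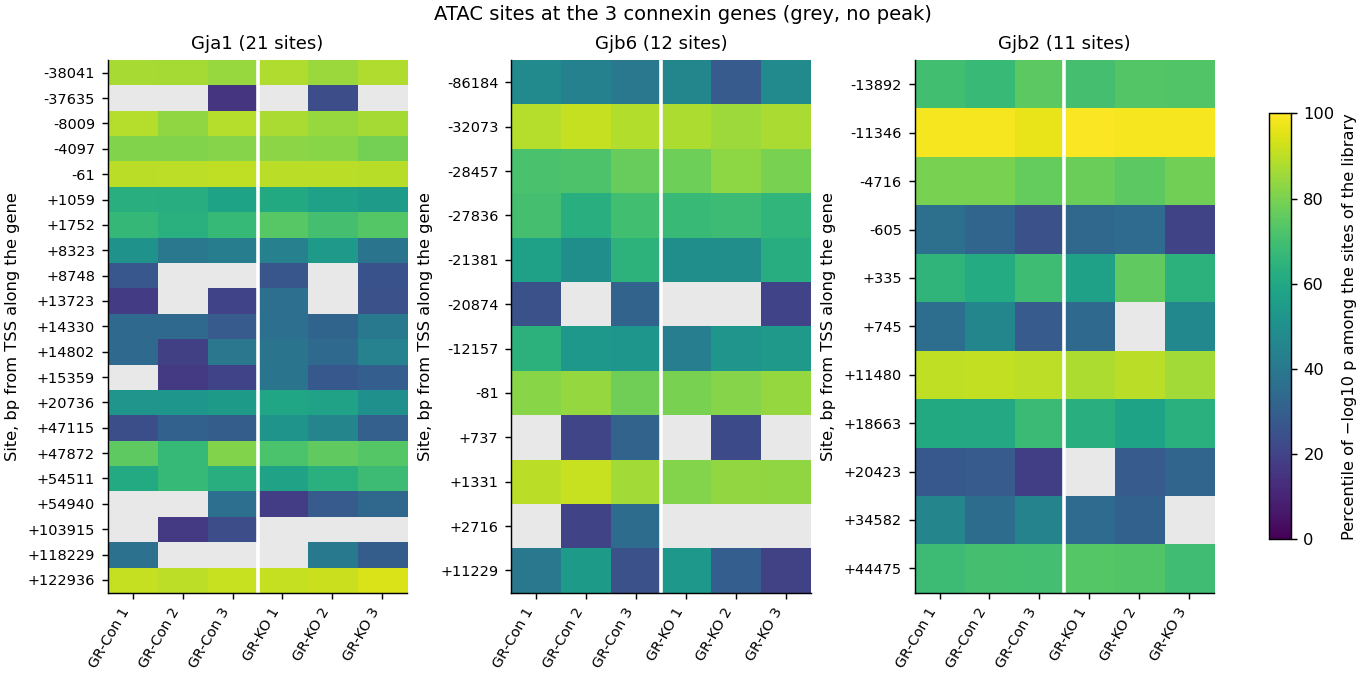
Percentile of −log10 p at each of the 44 connexin sites (rows, bp from the TSS along the gene) in the 6 libraries (columns, GR-Con left and GR-KO right of the white line), with grey where no peak was called. The strongest row is *Gjb2* -11346, at percentile 96.6 or above in every library, and the *Gjb6* +1331 row is dimmer in the 3 GR-KO columns.

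When the 160877 sites were ranked within each library by −log10 p, 1 connexin site passed the threshold of an adjusted p under 0.05 and it was lower in GR-KO, *Gjb6* +1331, while 0 were higher (5, or 11.4%, at an unadjusted p under 0.05 in either direction by limma, beside 13.4% of all sites). Over all sites 0.835% were called lower and 0.76% higher. The median difference in normal score (GR-KO minus GR-Con) was -0.16 over the 12 *Gjb6* sites, of which 10 were below 0, -0.05 over the 11 *Gjb2* sites, of which 7 were, and 0.11 over the 21 *Gja1* sites, of which 7 were, beside 0.01 over all sites. Ranked by fold, 0 connexin sites were called in either direction by limma, with 4 (9.09%, beside 12.1% of all sites) at an unadjusted p under 0.05, where 0.127% of all sites were called lower and 0.0609% higher. The median difference in fold score was -0.03 at *Gjb6*, 0.03 at *Gjb2* and 0.12 at *Gja1*, beside 0.02 over all sites.

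*Gjb6*, whose connexin 30 marks mature grey-matter astrocytes, carried the called site. At *Gjb6* +1331, in an intron (site at chr14:57132080-57132480), the −log10 p was 178, 214 and 137 in GR-Con 1, 2 and 3 and 91.2, 109 and 101 in the GR-KO libraries. All GR-KO values lay below all GR-Con values. The site stood at percentile 89.2 ± 2.68 (SD, n = 3) of −log10 p in GR-Con, against 82.9 ± 1.31 (SD, n = 3) for GR-KO, and its score differed by -0.29 (SE 0.0693, adjusted p = 0.0365 from limma). That call was lost when any library other than GR-Con 3 was left out, with the adjusted p ranging from 0.0384 to 0.231 over the 6 fits. It was also lost with the strongest covering peak in place of the peak chosen by its summit (adjusted p = 0.228), without the variance trend (adjusted p = 0.387) and with the replicate block (adjusted p = 0.0823, limma throughout). The fold did not follow, at 8.45, 9.15 and 7.27 in GR-Con and 7.98, 8.55 and 7.75 in GR-KO, so that the groups overlapped and the fold score differed by 0.02 (SE 0.0775, adjusted p = 0.956 from limma).

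The counts behind these values show both terms of the fold moving at this intronic site. On the summit stood 318, 362 and 271 cut ends in GR-Con and 165, 189 and 187 in GR-KO, with no overlap between the groups. In the 10 kb around it lay 2451, 2577 and 2429 cut ends in GR-Con and 1321, 1415 and 1550 in GR-KO, also without overlap. Scaled to the median over sites with a peak in every library, the summit count at *Gjb6* +1331 fell by 39.3% in GR-KO (log2 difference -0.72, SE 0.108, adjusted p = 6.0e-07 from limma) and the 10 kb count fell by 39.6% (log2 difference -0.73, SE 0.0633, adjusted p = 5.7e-10 from limma). The summit therefore held nearly the same share of the 10 kb count in each group, 12.7% ± 1.46 (SD, n = 3) for GR-Con against 12.6% ± 0.659 (SD, n = 3) for GR-KO. The summit call was kept without any one library and was lost when limma was fitted without a variance trend (adjusted p = 0.0615).

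At the *Gjb6* promoter the summit and its surroundings differed by unequal amounts. The promoter site, *Gjb6* -81 (chr14:57133492-57133892, across the TSS and the first exon), had a summit count of 230, 248 and 197 in GR-Con and 153, 171 and 191 in GR-KO, which overlap once the libraries are scaled, and the log2 difference of -0.30 did not pass the test (SE 0.115, adjusted p = 0.101 from limma). The 10 kb count around the promoter, a window that largely overlaps that of *Gjb6* +1331, was 2365, 2448 and 2336 in GR-Con and 1290, 1367 and 1512 in GR-KO and fell by 38.7% (log2 difference -0.71, SE 0.0630, adjusted p = 9.2e-10 from limma). With its denominator lower, the fold of the promoter peak was higher in GR-KO, 7.57, 7.998 and 8.11 against 6.33, 6.60 and 5.49 in GR-Con, without overlap. The fold score did not pass the test (difference 0.26, SE 0.0838, adjusted p = 0.269 from limma), and by −log10 p the promoter differed by 0.01 (SE 0.0699, adjusted p = 0.974). The summit held 9.43% ± 0.886 (SD, n = 3) of the cut ends of its 10 kb in GR-Con, against 12.3% ± 0.415 (SD, n = 3) for GR-KO.

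**Figure D2:**
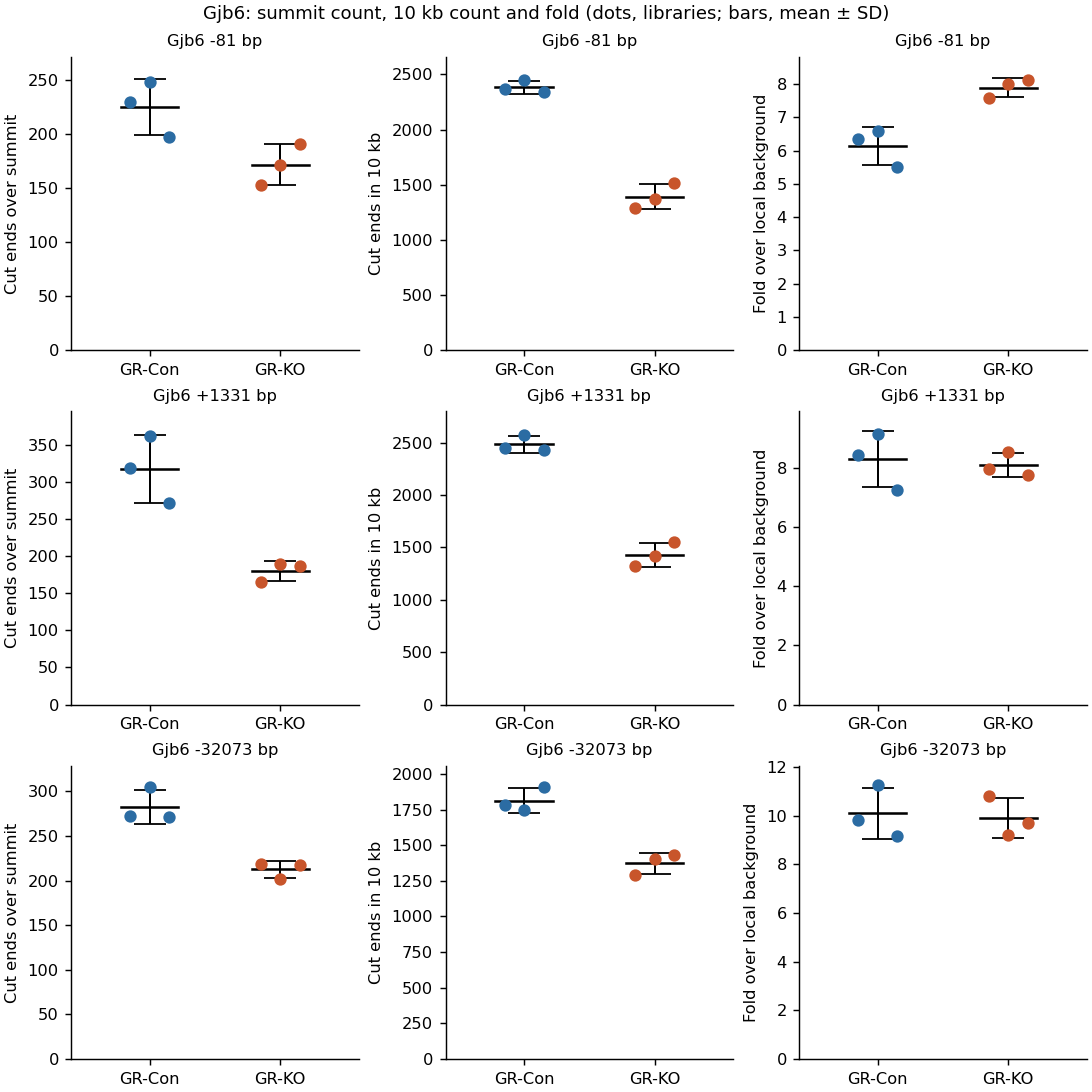
Cut ends over the summit (left), cut ends in the 10 kb around it (middle) and fold over local background (right) at the *Gjb6* promoter, intronic and upstream sites, for 3 GR-Con and 3 GR-KO libraries (dots) with mean ± SD. At the intronic site both counts are lower in GR-KO while the folds overlap, and at the promoter the fold is higher in GR-KO.

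Of the 8 sites upstream of *Gjb6*, 3 lay 27836, 28457 and 32073 bp from the TSS. *Gjb6* -32073 (chr14:57165484-57165884), the *Gjb6* site of highest mean rank, had a summit count of 272, 305 and 271 in GR-Con and 219, 202 and 217 in GR-KO, again without overlap. It fell by 20.1% on the median scale (log2 difference -0.32, SE 0.102, adjusted p = 0.0373 from limma), a call kept only without GR-Con 3 among the fits that left out 1 library, with adjusted p up to 0.204 without GR-Con 2. That call was also lost without the variance trend (adjusted p = 0.231 from limma). By −log10 p rank the score differed by -0.15 (SE 0.0609, adjusted p = 0.287) and by fold rank by 0.01 (SE 0.0746, adjusted p = 0.981 from limma). At *Gjb6* -28457 the log2 summit count differed by 0.19 and did not pass the test (SE 0.125, adjusted p = 0.434 from limma). The 10 kb count, the denominator of its fold, was lower in GR-KO (log2 difference -0.34, adjusted p = 4.7e-05 from limma). Its summit count was 136, 139 and 171 in GR-Con and 141, 181 and 157 in GR-KO, which overlap, with a −log10 p of 50.5, 53.1 and 72.8 in GR-Con against 71.4, 102 and 79.2 in GR-KO. Its −log10 p score differed by 0.22 (SE 0.0751, adjusted p = 0.167 from limma) and its fold score by 0.34 (SE 0.0996, adjusted p = 0.212).

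Counted over 10 kb, every testable *Gjb6* site was lower in GR-KO. The 6 sites with a local background above the genome-wide level in all libraries differed by -0.33 to -0.73 (log2), median -0.47, and all 6 passed the test, in every fit that left out 1 library as well. They fall in 2 stretches, so the 6 calls are not 6 independent measurements. The 10 kb windows of *Gjb6* -27836, -28457 and -32073 overlap one another, and so do those of *Gjb6* +1331 and -81. The window of *Gjb6* +11229 meets that of *Gjb6* +1331 only at its edge and does not reach that of *Gjb6* -81. It also reaches into those of *Gjb2* -11346 and -13892. Around the upstream stretch the 10 kb count, taken at *Gjb6* -32073, was 1784, 1747 and 1910 in GR-Con and 1290, 1404 and 1430 in GR-KO and fell by 20.2% (adjusted p = 7.3e-05 from limma). Over all 64926 sites tested on this measure, 8.21% were called lower and 6.46% higher, and the median difference was 0.00. By summit count, 2 connexin sites were called lower, both at *Gjb6*, and 0 higher (5 at an unadjusted p under 0.05 by limma, 16.1% beside 19.2% of all sites), where 3.24% of 99772 sites were called lower and 3.27% higher. With the libraries scaled to their genome-wide background instead, these shares were 3.94% and 1.97% by summit count and 10.4% and 3.59% by 10 kb count. The median summit count difference was -0.30 over 9 *Gjb6* sites, of which 8 were below 0, -0.18 over 8 *Gjb2* sites, of which 6 were, and 0.03 over 14 *Gja1* sites, of which 7 were.

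**Figure D3:**
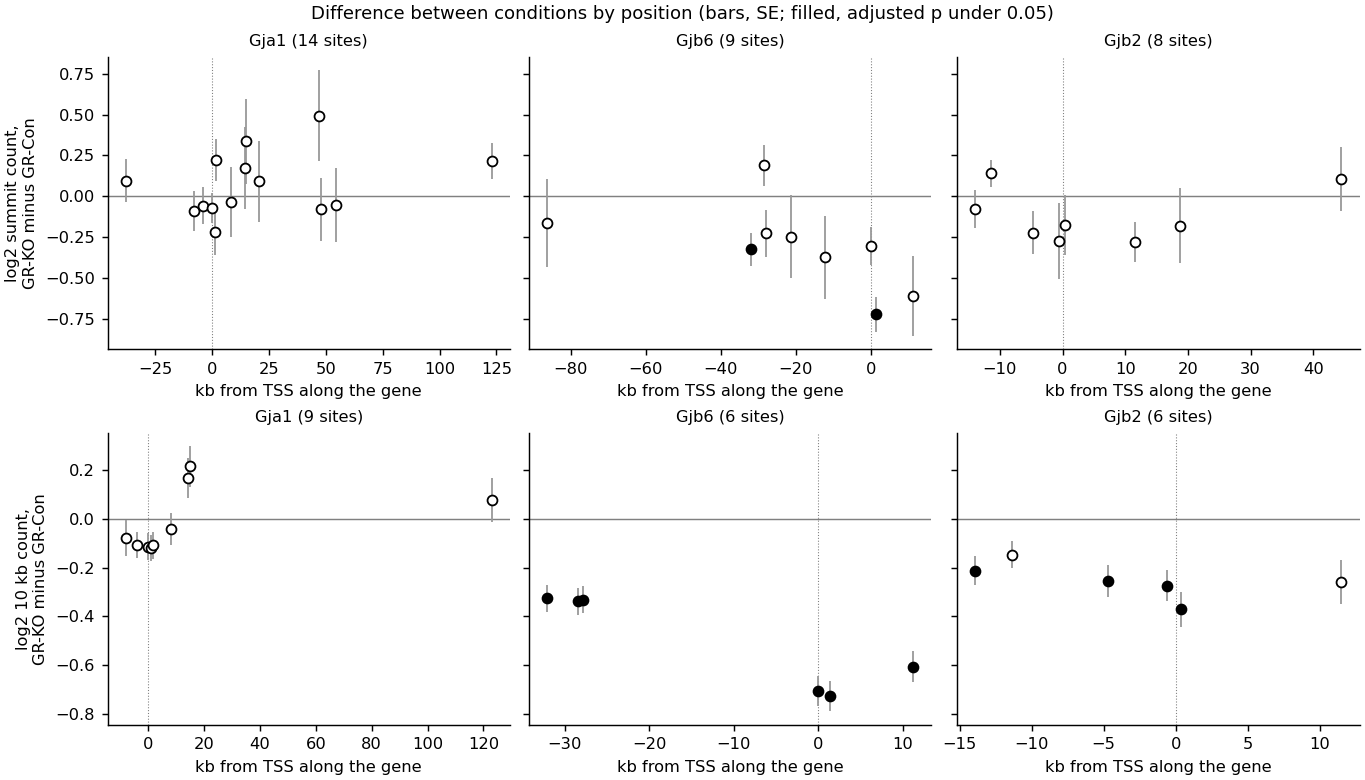
Log2 difference (GR-KO minus GR-Con, median scale) in summit count (top) and 10 kb count (bottom) for each site against its distance in kb from the TSS, with the SE as bars and filled points where the adjusted p was under 0.05. In the lower panels all 6 *Gjb6* points lie at -0.325 or below and the 9 *Gja1* points lie between -0.119 and 0.215.

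*Gjb2*, the neighbour that encodes connexin 26, was called lower over 10 kb at some sites and at no summit. The site nearest its TSS, *Gjb2* +335 (chr14:57104167-57104567, intronic at its centre and reaching the first exon), had a summit count of 87, 81 and 104 in GR-Con and 54, 113 and 70 in GR-KO, GR-KO 2 being the highest of the 6. The log2 difference was -0.17 (SE 0.182, adjusted p = 0.666 from limma). In the 10 kb around it lay 1038, 1150 and 1161 cut ends in GR-Con and 734, 917 and 814 in GR-KO, without overlap, and this count fell by 22.7% (log2 difference -0.37, SE 0.0706, adjusted p = 0.00029 from limma). Of 6 testable *Gjb2* sites 4 were called lower by 10 kb count, and all 6 were below 0 (-0.15 to -0.37, median -0.26). The windows of the 4 form one chain of overlaps, which runs on into that of *Gjb6* +11229. Of the 4, *Gjb2* +335 and *Gjb2* -605 were called whichever library was left out. *Gjb2* -605 (chr14:57105107-57105507, intergenic) had 1243, 1264 and 1377 cut ends in the 10 kb around it in GR-Con and 920, 1092 and 1043 in GR-KO, without overlap (log2 difference -0.27, SE 0.0622, adjusted p = 0.00214 from limma). *Gjb2* -4716 was no longer called without GR-KO 1 (adjusted p = 0.0895) and *Gjb2* -13892 no longer without GR-Con 2, GR-KO 2 or GR-KO 3 (adjusted p from 0.0748 to 0.145) and without the variance trend (adjusted p = 0.0738).

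The strongest connexin site of all was *Gjb2* -11346 (chr14:57115848-57116248), which by nearest TSS belongs to *Gjb2* and overlaps the first exon of *Gm4491*. It stood at percentile 96.6 to 99.3 of −log10 p. Its summit count was 616, 632 and 518 in GR-Con and 671, 586 and 575 in GR-KO, which overlap, with a log2 difference of 0.14 (SE 0.0820, adjusted p = 0.359 from limma). Its fold was 15.16, 13.7 and 11.3 in GR-Con and 17.4, 15.5 and 15.25 in GR-KO. It was higher in every GR-KO library, though GR-KO 3 lay barely above GR-Con 1. The fold score did not pass the test (difference 0.24, SE 0.0834, adjusted p = 0.292 from limma). Downstream of the gene, *Gjb2* +11480 (chr14:57093022-57093422, intergenic) had a summit count of 183, 184 and 172 in GR-Con and 138, 157 and 125 in GR-KO, without overlap except on the background scale. The log2 difference of -0.28 did not pass the test (SE 0.121, adjusted p = 0.172 from limma), nor did the 10 kb count (log2 difference -0.26, SE 0.0914, adjusted p = 0.0538). *Gjb2* +34582 was weak, with a summit count of 26, 20 and 28 in GR-Con and 19 and 17 in GR-KO 1 and 2, and no peak in GR-KO 3 (score difference by −log10 p -0.53, SE 0.301, adjusted p = 0.462).

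*Gja1*, which encodes connexin 43, the main connexin of astrocytes, had no site called by any of the 4 measures. At its promoter site, *Gja1* -61 (chr10:56377069-56377469, across the TSS), the summit count was 319, 326 and 342 in GR-Con and 306, 296 and 283 in GR-KO. Every GR-KO value was lower and the log2 difference was -0.07 (SE 0.0920, adjusted p = 0.737 from limma). The fold was 8.26, 8.70 and 8.32 in GR-Con and 8.55, 8.75 and 8.44 in GR-KO, which overlap. Around it lay 2517, 2439 and 2681 cut ends in 10 kb in GR-Con and 2327, 2197 and 2176 in GR-KO, a log2 difference of -0.11 that did not pass the test (SE 0.0539, adjusted p = 0.172). Over the 9 testable *Gja1* sites the 10 kb differences ran from -0.12 to 0.21, with a median of -0.08. The ends of this range were *Gja1* +1059 and *Gja1* +14802, and without GR-Con 3 the latter and the neighbouring *Gja1* +14330 were called higher (adjusted p = 0.0126 and 0.0490 from limma).

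Distal to *Gja1*, the site of highest mean rank was *Gja1* +122936 (chr10:56500066-56500466), between genes and beyond the end of *Gja1*. Its summit count was 204, 185 and 215 in GR-Con and 198, 211 and 255 in GR-KO, which overlap unless scaled to the median, with a log2 difference of 0.22 (SE 0.110, adjusted p = 0.270 from limma). At *Gja1* +1752 (chr10:56378882-56379282, in an annotated exon of a *Gja1* transcript) the fold was 3.78, 3.55 and 3.74 in GR-Con and 4.72, 4.35 and 4.69 in GR-KO, higher in every GR-KO library. Neither the fold score (difference 0.29, SE 0.139, adjusted p = 0.439) nor the −log10 p score (difference 0.21, SE 0.0828, adjusted p = 0.266 from limma) passed. *Gja1* +15359 (chr10:56392489-56392889, intronic) had no peak in GR-Con 1, summit counts of 16 and 26 in GR-Con 2 and 3 and 31, 26 and 29 in GR-KO, and a score difference by −log10 p of 0.59 (SE 0.311, adjusted p = 0.425).

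A ratio of 10 kb counts within a library needs no scale between libraries. The 10 kb count at the *Gjb6* promoter, divided by that at the *Gja1* promoter, was 0.940, 1.00 and 0.871 in GR-Con and 0.554, 0.622 and 0.695 in GR-KO. The groups did not overlap, at 0.938 ± 0.0662 (SD, n = 3) for GR-Con against 0.624 ± 0.0703 (SD, n = 3) for GR-KO, and the two-sided exact permutation test gave p = 0.1, the smallest that 3 libraries against 3 allow. For *Gjb2* the same ratio was 0.412, 0.472 and 0.433 in GR-Con and 0.315, 0.417 and 0.374 in GR-KO (exact permutation p = 0.2). These are 2 comparisons, chosen after the counts were seen.

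**Figure D4:**
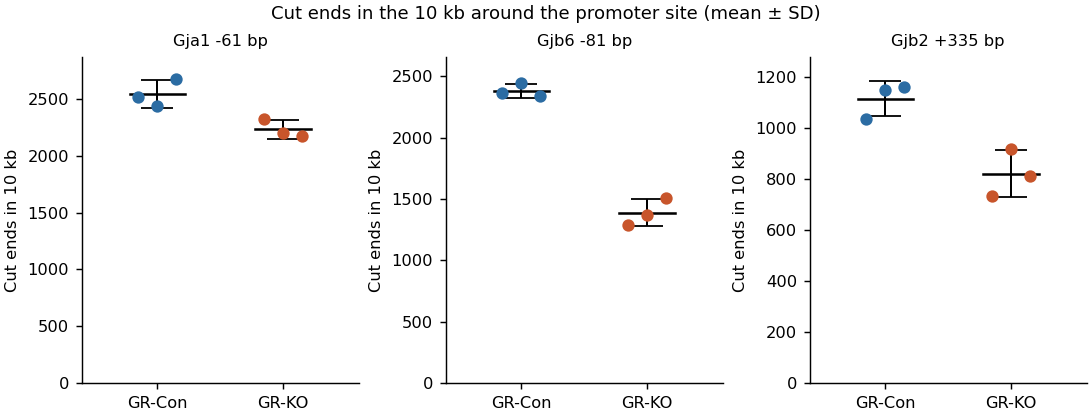
Cut ends in the 10 kb around the promoter sites of *Gja1*, *Gjb6* and *Gjb2* in 3 GR-Con and 3 GR-KO libraries (dots), unscaled, with mean ± SD. The *Gjb6* counts are 2336 to 2448 in GR-Con and 1290 to 1512 in GR-KO, and the *Gja1* counts 2439 to 2681 and 2176 to 2327.

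The other genes of gap junctions held calls in both directions. Sites near 16 of 17 other connexins, 3 pannexins and 7 junction partners numbered 593. Among them, 4 were called lower and 4 higher by −log10 p rank and 0 by fold rank in either direction (66 at an unadjusted p under 0.05 by limma, a share below that of all sites). By summit count 13 were called lower and 16 higher of 371, and by 10 kb count 13 lower and 20 higher of 293. Over all sites the lower and higher calls were 0.835% and 0.76% by −log10 p rank, 3.24% and 3.27% by summit count, and 8.21% and 6.46% by 10 kb count. By −log10 p rank the 229 sites of other connexins held 0 lower and 4 higher calls, among them 3 at *Gja10* (score differences from 0.31 to 1.28). The 55 pannexin sites held 1 lower call, at *Panx2* (score difference -1.74, SE 0.393, adjusted p = 0.0288 from limma), and the 309 sites of junction partners held 3 lower calls. Of these, 2 were near *Cdh2*, which encodes N-cadherin (score differences -0.63, SE 0.0778, adjusted p = 0.00015, and -0.27, SE 0.0622, adjusted p = 0.0295 from limma), and 1 was near *Tjp1*, which encodes the scaffold ZO-1 that binds connexin 43 (score difference -0.52, SE 0.127, adjusted p = 0.0442 from limma).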

How the data were processed

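The authors ran version 2.2.0 of ENCODE's pipeline for ATAC-seq (mm10, with peaks called at p under 0.01) on each library and deposited 1 peak list per library. Each list holds a capped score (not used), a fold, which is a ratio over local background, and the −log10 of p and q as deposited. No peak ended beyond its chromosome (0 of 1116429). Fold and −log10 p were solved for a whole summit count and a Poisson background (pseudocount 1), which came out whole for 100% of peaks within 0.001 in −log10 p. The background was the larger of a genome-wide level and the cut ends in 10 kb, each counted over 150 bp, again whole for 100% of the peaks above that level. That 10 kb reading is inferred from these values.

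Windows of 200 bp to each side of summits were taken in order of fold rank without overlap and kept with a peak in 2 or more libraries. A library took the strongest peak with its summit in the window. Ranks became normal scores (no peak, tied lowest), and limma 3.58.1 (R 4.3.3) with a variance trend gave two-sided p-values with Benjamini-Hochberg adjustment over all sites. The study's edgeR test needs read counts and was not repeated. Summit counts (99772 sites with a peak in all 6 libraries) and 10 kb counts (64926 sites) were scaled to their median and tested likewise on log2 values; the 10 kb counts were added after seeing the data. For each gene the text names the site nearest the TSS within 500 bp, the site of highest mean rank, the 3 sites of smallest p by −log10 p rank and every site called by either rank, and any other site named was chosen after its values were seen. The values of 1 called site near another gene are not reported here. The limma step and the solving of counts were tested on simulated data. Calculations used Python 3.11.15, pandas, scipy 1.17.1 and pysam 0.24.0, with GENCODE M21. The members, lists and measures were chosen with earlier results of these data known. The SE and p-values from limma rest on the spread between these pooled libraries and not on counting error. Cut ends without molecular identifiers are not independent molecules.

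The labels give replicate numbers without saying whether they pair the samples. By −log10 p rank, the correlation of deviations was -0.00693 to 0.0304 for the 3 same-numbered pairs. For pairs of unlike number it was -0.0340 to 0.00958. Such correlations cannot decide whether libraries were prepared in pairs.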

Additional observations from a re-analysis of the deposited data

How the results depend on the processing

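The count of connexin sites called lower by −log10 p rank, 1 as reported, was 0 with the strongest peak covering over 200 bp, without the variance trend, at an adjusted p under 0.01 and with the replicate block, and ran from 0 to 1 without single libraries. It was 2 on summit counts with either scaling, and on 10 kb counts (added after seeing the data) 10 with median and 11 with background scaling, where the latter called 10.4% of all sites lower and 3.59% higher. The 2 summit count calls became 0 without the variance trend and 1 to 3 without single libraries; with the replicate block the count stayed at 2. The 0 sites called higher by 10 kb count became 1 with the replicate block and 0 to 2 without single libraries (all at *Gja1*), and the 10 called lower 9 to 12. No connexin site was called by fold rank under any of the alternatives run on fold. With gene bodies alone the sites numbered 9 at *Gja1*, 3 at *Gjb6* and 2 at *Gjb2*, and within 200 kb 21 at *Gjb6* and 17 at *Gjb2*. Where any peak covering over 200 bp counted, 1 of 40 connexin sites, *Gjb2* +20423, had one in all 3 GR-Con libraries and in 0 GR-KO libraries, against 1.31% of all sites.

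Of 184 recomputed differences at the 12 sites named by rule, 164 kept their direction and side of the threshold, 8 lost the call, all at *Gjb6* +1331 (adjusted p up to 0.387, without the variance trend), and 2 gained it, both at *Gjb6* -32073 on summit counts. The 10 that changed sign lay at sites not called: *Gja1* +15359 (-0.092 by covering peaks, -0.0086 to 0.739 without single libraries), *Gjb2* +335 (-0.055 by covering peaks, -0.033 to 0.141 without single libraries, -0.17 and -0.22 by summit count on the median and background scales) and *Gjb6* -81 (-0.051 to 0.057 without single libraries, -0.30 and -0.35 by summit count). The cause of these changes was not tested. Background scaling shifts the median of all sites by -0.05 for summit counts and by -0.04 for 10 kb counts. Of the sites named by rule, *Gja1* +15359 and *Gjb2* +34582 stood on 16 to 31 cut ends where a peak was called.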
